A study of Mus musculus with 9 samples.

Results

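Endothelial and red-cell miRNAs were followed across brown, subcutaneous and visceral fat of mice on a high fat diet (HFD). The members are the rows of the deposited miRNA table of miR-126, miR-144, miR-451 and miR-486, whatever their letter or arm. This rule gave 8 of 1251 miRNAs, namely miR-126-3p, miR-126-5p, miR-144-3p, miR-144-5p, miR-451a, miR-451b, miR-486-3p and miR-486-5p. Small RNA was sequenced from interscapular brown (BAT), inguinal subcutaneous (SAT) and epididymal visceral (VAT) adipose tissue, with 3 libraries per depot. All 9 libraries came from male C57BL/6J mice that entered acclimation at 5 to 6 weeks of age. The HFD that followed had 45% of energy from fat, 20% from protein and 35% from carbohydrate and lasted 11 weeks, and all were fasted for 4 hours before tissue collection. Libraries are named by the numbers of their labels, namely BAT 12, BAT 15, BAT 20, SAT 14, SAT 19, SAT 20, VAT 14, VAT 17 and VAT 20, and values are given in this order. No low fat libraries were analysed here, so that the comparisons are between depots under HFD only, and each library is whole tissue. Values are the deposited normalized values on a log2 scale, on which a difference of 1 is a doubling. The lowest value of the table, 3.32, is shared by all miRNAs at the bottom of each library.

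MiR-126 is made from an intron of Egfl7, a gene of endothelial cells, and both of its arms are abundant in endothelium, where miR-126-3p acts in vascular growth and integrity. MiR-451a and miR-144 come from one erythroid transcript that GATA1 drives, and miR-451a is among the most abundant miRNAs of red cells. Its short hairpin bypasses Dicer and is cut by Argonaute 2, so that the mature strand runs from the 5′ arm into the loop. MiR-486 lies in Ank1, the gene of erythrocyte ankyrin, and is abundant in red cells, but a promoter of the same gene is active in striated muscle, so that muscle contains it too.

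The 5 members with an entry in the RefSeq miRNA table (GRCm38.p6) are shown with the seed, bases 2 to 8 from the 5′ end, in capitals, since the seed sets which messages a miRNA can pair with.
miR-126a-3p: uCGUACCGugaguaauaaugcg
miR-144-3p: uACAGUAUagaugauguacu
miR-144-5p: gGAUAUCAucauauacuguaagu
miR-451a: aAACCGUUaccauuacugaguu
miR-451b: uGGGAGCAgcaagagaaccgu
The RefSeq name miR-126a-3p corresponds to the row miR-126-3p of the data. None of the 5 shared its seed with another of the 1679 mature mouse miRNAs of that table (0 others each), so that they form no seed family among themselves. MiR-126-5p, miR-486-5p and miR-486-3p are named only.

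The hairpins of the erythroid pair are shown with the mature strand in capitals, miR-144-3p in the first and miR-451a in the second, to set the usual position in an arm beside the position that reaches the loop.
Mir144: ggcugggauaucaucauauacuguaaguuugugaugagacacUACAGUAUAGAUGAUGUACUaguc
Mir451a: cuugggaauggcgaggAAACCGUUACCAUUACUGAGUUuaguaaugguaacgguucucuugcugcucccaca
MiR-451a occupied bases 17 to 38 of a hairpin of 72 bases. In GENCODE on GRCm38, Mir144 lies on chromosome 11 from 78073005 to 78073070 and Mir451a on the same strand from 78073170 to 78073241, with 99 bases between them. Mir451b has the coordinates of Mir451a on the opposite strand. Mir126a lies on chromosome 2 from 26591357 to 26591429, within an intron in 8 of the 9 Egfl7 transcripts that span it and over an exon in 1. Mir486 lies on chromosome 8 from 23142555 to 23142682, within an intron in all 15 Ank1 transcripts that span it, and Mir3107 lies inside it on the opposite strand.

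The table holds no read counts, so that depth is unknown and precision is judged from how far libraries of one depot lie apart. The libraries had 240 to 349 miRNAs above the lowest value, and they share nearly the same set of values by rank, so that a value reflects the place of a miRNA in its library. Of the 8 members, 5 were above the lowest value in all 9 libraries, miR-144-5p in 3 libraries, and miR-144-3p and miR-451b in none. The labelled tissues were checked with miRNAs of brown and white fat. MiR-193b-3p, miR-378a-3p and miR-455-3p were higher in BAT than in SAT and than in VAT at an adjusted p under 0.05, and miR-365-3p did not pass. MiR-10b-5p, more abundant in white fat, was higher in SAT and VAT than in BAT at that threshold, and miR-196a-5p and miR-335-5p were at the lowest value in all BAT libraries and above it in all SAT and VAT libraries. BAT 15, BAT 20 and VAT 20 stood apart by high miR-133a-3p and miR-133b-3p of muscle. Muscle miR-1a-3p was at or near the lowest value in BAT 15 and VAT 20, as was miR-206-3p in VAT 20. SAT 20 stood apart by high leukocyte miR-142-5p, miR-150-5p and miR-146a-5p, but not miR-223-3p. Results are given without these libraries where they depend on them.

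The vessel and blood miRNAs did not move together between depots. MiR-126-3p, miR-126-5p and miR-451a were higher in VAT than in BAT, whereas both arms of miR-486 were lower. All 5 members measured in every library passed an adjusted p of 0.05 in VAT/BAT (3 higher in VAT and 2 lower), where 66.2% of the 343 tested miRNAs did, 39.4% higher in VAT and 26.8% lower, and 69.0% of those measured in every library. In SAT/BAT, 3 of the 5 passed (2 higher in SAT and 1 lower), against 40.5% of the tested miRNAs, 22.4% higher and 18.1% lower, and 47.3% of those measured in every library. In VAT/SAT only miR-451a passed, higher in VAT, against 16.0% of the tested miRNAs, 8.45% higher in VAT and 7.58% lower. With only 5 members, these counts are read as a description beside that background. The members' median log2 difference was 1.10 in VAT/BAT, 0.73 in SAT/BAT and 0.37 in VAT/SAT, where that of all tested miRNAs was 0.40, 0.26 and 0.10. The libraries did not overlap for 5 of 5 members in VAT/BAT, for 5 of 5 in SAT/BAT and for 2 of 5 in VAT/SAT, where 72.0%, 52.5% and 39.4% of the tested miRNAs showed no overlap. VAT/BAT and SAT/BAT use the same 3 BAT libraries.

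**Figure D1:**
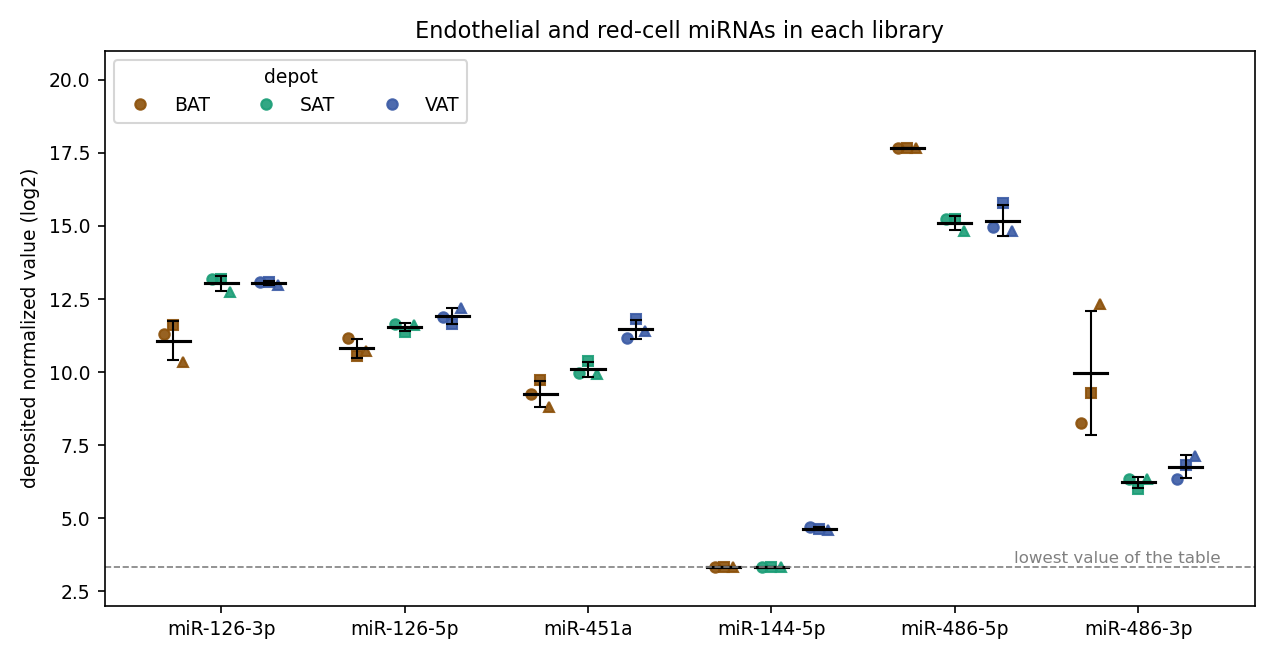
Deposited log2 values of the 6 members seen in at least 1 library, by depot, with 1 point per library, the mean as a horizontal line and the SD as a bar (n = 3; circle, square and triangle are the libraries in the order of their labels). MiR-126-3p, miR-126-5p and miR-451a lie lowest in BAT, miR-486-5p and miR-486-3p lie highest in BAT, and miR-144-5p leaves the lowest value of 3.32 (dashed) in the VAT libraries only.

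MiR-126-3p, the arm of miR-126 that endothelial cells are best known for, had a log2 value of 11.29, 11.60 and 10.34 in BAT 12, BAT 15 and BAT 20. The SAT libraries 14, 19 and 20 read 13.18, 13.18 and 12.74, and the VAT libraries 14, 17 and 20 read 13.09, 13.09 and 12.98. Every SAT and VAT library thus lay above every BAT library, and the ranges of SAT and VAT overlapped. Its log2 difference was 1.98 in VAT/BAT (standard error 0.36, 3.93-fold, adjusted p = 0.00376 in limma). It was 1.96 in SAT/BAT (3.88-fold, standard error 0.38, adjusted p = 0.0138). In VAT/SAT the log2 difference was 0.02 with a 95% interval from -0.38 to 0.42 (adjusted p = 0.963), and its sign turned with a shift of the libraries to a common median (-0.022). The SAT/BAT call was lost without SAT 14 (adjusted p = 0.0555), without SAT 19 (adjusted p = 0.0508) and with no filter on low values (adjusted p = 0.0977), which also ended the VAT/BAT call (adjusted p = 0.0547). In a bulk library, fewer cells of a type and less RNA per cell cannot be told apart.

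MiR-126-5p, the opposite arm of the same hairpin, read 11.18, 10.56 and 10.70 (log2) in the BAT libraries, 11.65, 11.38 and 11.60 in those of SAT, and 11.88, 11.65 and 12.20 in those of VAT. Its order of depots was BAT, SAT and VAT, without overlap of BAT with the other two. The log2 difference was 1.10 in VAT/BAT (standard error 0.28, 2.14-fold, adjusted p = 0.0134), 0.73 in SAT/BAT (1.66-fold, standard error 0.20, adjusted p = 0.0418) and 0.37 in VAT/SAT (95% interval -0.09 to 0.82, adjusted p = 0.208). With no filter on low values, the VAT/BAT call was lost (adjusted p = 0.0814 in limma). Without the libraries with high miR-133a-3p, which left a single BAT library, the VAT/BAT difference was 0.59. The SAT/BAT call was lost in 12 of 18 other settings, when BAT 15, BAT 20, SAT 14, SAT 19 or SAT 20 was left out (adjusted p 0.0673 to 0.117) and with no moderation (adjusted p = 0.0624), a common median (0.0608), values relative to miR-191-5p (0.199), the lowest value subtracted (0.0501), the library order as a block (0.0518) or no filter (0.216) among them.

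Within a library the 2 arms can be set against each other. This removes a shift of the whole library, but not the mapping of values to ranks. MiR-126-3p minus miR-126-5p was 0.11, 1.04 and -0.36 in BAT 12, BAT 15 and BAT 20, so that the 5p arm was the higher one in BAT 20. The SAT libraries had 1.53, 1.80 and 1.14, and those of VAT had 1.21, 1.43 and 0.79. The mean excess of the 3p arm was 0.26 ± 0.71 on the log2 scale in BAT, 1.49 ± 0.33 for SAT and 1.14 ± 0.33 for VAT (SD, n = 3 each). The arm difference was larger in SAT than in BAT by 1.22, without overlap (exact permutation test, two-sided p = 0.1, which is the smallest p of this design). It was larger in VAT than in BAT by 0.88, with overlap (exact permutation p = 0.2).

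MiR-451a, the red-cell miRNA, read 9.23, 9.71 and 8.82 (log2) in the BAT libraries, 9.95, 10.38 and 9.93 in those of SAT, and 11.18, 11.81 and 11.41 in those of VAT. The 3 depots did not overlap and stood in the order BAT, SAT and VAT. The log2 difference was 2.21 in VAT/BAT (standard error 0.32, 4.62-fold, adjusted p = 0.00151) and 1.38 in VAT/SAT (standard error 0.22, 2.60-fold, adjusted p = 0.0276). In SAT/BAT it was 0.83, with an adjusted p of 0.0717 and a 95% interval, not adjusted for the number of miRNAs, from 0.10 to 1.57. The VAT/BAT call held in all 18 other settings, with libraries left out among them (log2 difference 1.99 to 2.44). The setting without the libraries with high miR-133a-3p is among them and left a single BAT library, so that it is no test. The VAT/SAT call was lost without SAT 14 (adjusted p = 0.0641), SAT 19 (0.0614), SAT 20 (0.0659) or VAT 20 (0.0781), with log2 differences of 1.30 to 1.52. The SAT/BAT difference passed in 4 of 18 other settings. These were without BAT 15 (1.06, adjusted p = 0.0358), all 9 libraries in one fit (0.0467), the library number as a block in that fit (0.0431) and the library order as a block (0.0451).

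MiR-144-5p, from the transcript that also yields miR-451a, was at 4.69, 4.64 and 4.59 in VAT 14, VAT 17 and VAT 20 and at the lowest value of 3.32 in every BAT and SAT library. Its VAT mean was 2.49-fold above the lowest value, and since it entered the tested set through the VAT libraries alone, no test is given for it. MiR-144-3p was at the lowest value in all 9 libraries, as was miR-451b, so that the erythroid cluster was represented above the lowest value by miR-451a and, in VAT, by miR-144-5p. MiR-451a ranked 56 to 68 of 1251 in VAT, 84 to 93 in SAT and 97 to 120 in BAT, and miR-144-5p ranked 253 to 256 in VAT. The lowest value began at rank 241 in SAT 19 and at rank 256 in BAT 20. The VAT libraries had 349, 323 and 332 miRNAs above the lowest value. Those of BAT had 268, 273 and 255, and those of SAT 285, 240 and 266. The part of this wider detection in the VAT values of miR-144-5p was not tested.

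**Figure D2:**
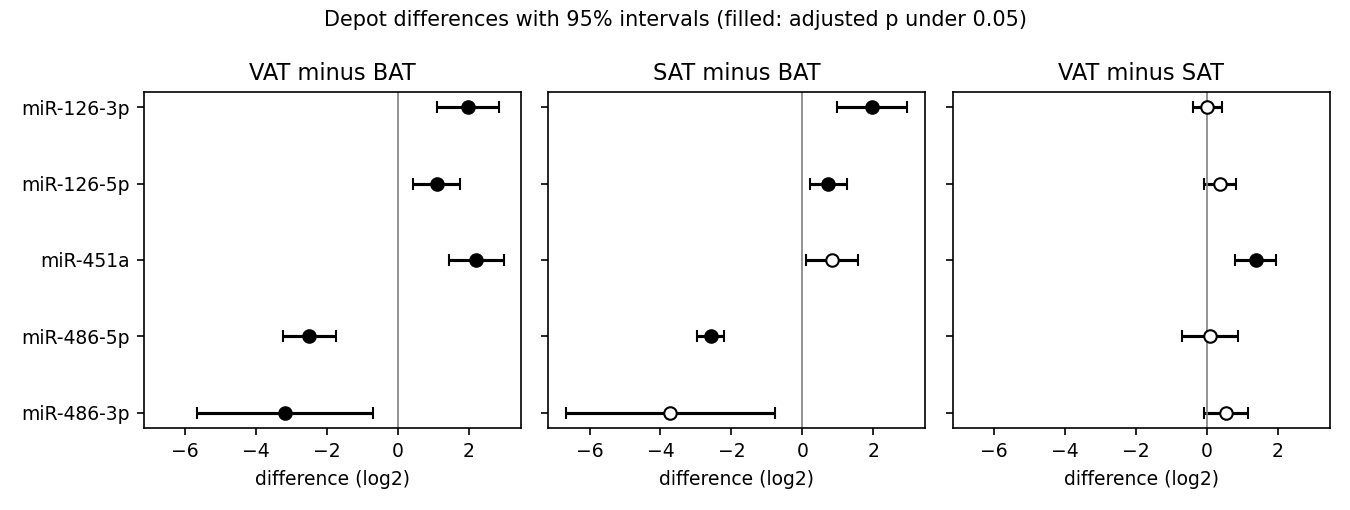
Log2 differences between depots (points) with 95% intervals from limma (bars, not adjusted for the number of miRNAs) for the 5 members above the lowest value in all 9 libraries, with filled points for an adjusted p under 0.05. MiR-126-3p, miR-126-5p and miR-451a lie to the right of 0 and both arms of miR-486 to the left in VAT minus BAT, and miR-451a has the only filled point in VAT minus SAT.

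The level of miR-451a was then set against 2 other miRNAs within each library. Against miR-23a-3p, of which red cells hold little and which is used with miR-451a as a measure of hemolysis, miR-451a stood at -3.16 ± 0.44 on the log2 scale in BAT, at -3.49 ± 0.21 for SAT and at -2.08 ± 0.38 for VAT (SD, n = 3 each). VAT lay above SAT by 1.41 and above BAT by 1.08, without overlap in either case (exact permutation test, two-sided p = 0.1 in both, the smallest possible). SAT and BAT overlapped and differed by -0.33 (exact permutation p = 0.4). MiR-23a-3p itself lay lower in BAT, without overlap. Its log2 difference was 1.13 in VAT/BAT (adjusted p = 0.0626 in limma) and 1.17 in SAT/BAT (adjusted p = 0.116). It was -0.03 in VAT/SAT. The contrasts with BAT thus carry the depot differences of both miRNAs, and miR-23a-3p is also in the vessel list below. Against endothelial miR-126-3p, miR-451a stood at -1.82 ± 0.27 in BAT, at -2.94 ± 0.25 for SAT and at -1.59 ± 0.31 in VAT (SD, n = 3 each). By this measure SAT lay below BAT by 1.12 on the log2 scale (a SAT minus BAT difference of -1.12) and VAT above SAT by 1.36, both without overlap (exact permutation p = 0.1 in each), whereas VAT and BAT overlapped (0.23, exact permutation p = 0.5). The level of one miRNA against another also depends on how well each ligates into a library, so that only differences between depots are read here.

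**Figure D3:**
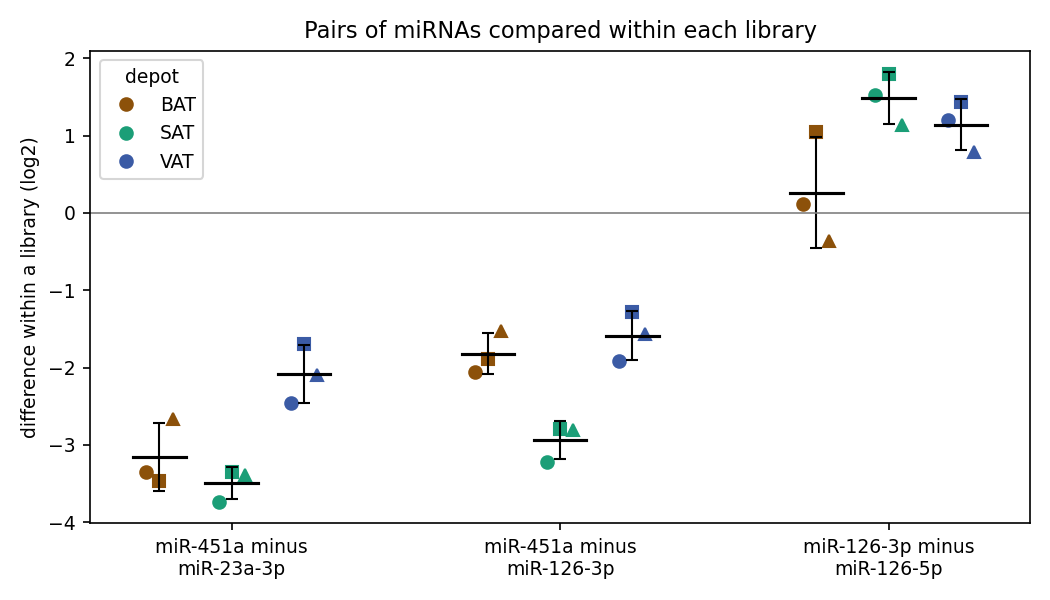
Log2 differences between 2 miRNAs of the same library, with 1 point per library, the mean as a line and the SD as a bar (n = 3 per depot). MiR-451a stands highest in VAT against miR-23a-3p (-2.08) and lowest in SAT against miR-126-3p (-2.94), and miR-126-3p exceeds its opposite arm least in BAT (0.26).

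MiR-486-5p went the other way from miR-451a, although red cells contain both. It had a log2 value of 17.68 in each of the 3 BAT libraries, where it shared rank 2 of 1251 with miR-3107-5p. The values were 15.23, 15.23 and 14.81 in SAT and 14.95, 15.78 and 14.81 in VAT, at ranks 11 to 18. The equal values in BAT follow from the equal ranks and do not show equal amounts. The log2 difference was -2.49 in VAT/BAT (standard error 0.31, 5.63-fold lower in VAT, adjusted p = 0.000818) and -2.59 in SAT/BAT (6.00-fold lower in SAT, standard error 0.14, adjusted p = 0.000309). Both calls held in all 18 other settings of each comparison. The setting without the libraries with high miR-133a-3p is among them and left a single BAT library, so that it is no test. Since the BAT values are equal by rank, leaving out any BAT library could not change the log2 difference (-2.49 and -2.59). The standard errors and adjusted p also rest on BAT values without spread. In VAT/SAT the difference was 0.09 with a 95% interval from -0.70 to 0.88 (adjusted p = 0.871), and its sign turned without SAT 20 (-0.046) or VAT 17 (-0.21).

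MiR-486-3p, the opposite arm, was at 8.25, 9.27 and 12.34 in BAT 12, BAT 15 and BAT 20, at 6.34, 6.01 and 6.33 in SAT and at 6.34, 6.83 and 7.12 in VAT. Every BAT library lay above the others, and BAT 20 stood far above the other BAT libraries. The log2 difference was -3.19 in VAT/BAT (standard error 1.02, 9.13-fold lower in VAT, adjusted p = 0.0344), -3.73 in SAT/BAT (standard error 1.13, adjusted p = 0.0539) and 0.54 in VAT/SAT (95% interval -0.07 to 1.15, adjusted p = 0.179). Without BAT 20 it was -2.0 in VAT/BAT (adjusted p = 0.00879) and -2.54 in SAT/BAT (adjusted p = 0.0116), and without BAT 12 it was -4.04 (adjusted p = 0.0144) and -4.58 (adjusted p = 0.0431). The VAT/BAT call was lost without BAT 15 (adjusted p = 0.0524), VAT 14 (0.121), VAT 17 (0.0985) or VAT 20 (0.0968). It was also lost with no moderation (adjusted p = 0.0939), 40 added (0.0509), values relative to miR-191-5p (0.0554), a lowest value of 40 (0.0854) and no filter (0.330), and thus in 9 of 18 other settings. MiR-486-5p exceeded miR-486-3p by 9.42, 8.40 and 5.34 in BAT 12, BAT 15 and BAT 20, by 8.49 to 9.22 in SAT and by 7.69 to 8.95 in VAT. Since miR-486-5p has the same value in each BAT library, the spread within BAT is that of miR-486-3p alone. The depots overlapped in this arm difference, which was higher by 0.70 in VAT than in BAT (exact permutation p = 0.8) and by 1.15 in SAT than in BAT (exact permutation p = 0.6), with a sign that turned without BAT 20 (-0.49 and -0.046).

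Mir3107, which RefSeq also calls mir-486b, overlaps Mir486 on the opposite strand. The rows miR-486-5p and miR-3107-5p held the same value in all 9 libraries, so that their reads cannot be told apart in this table. The 3p rows were equal in SAT and differed elsewhere, with miR-3107-3p at 8.43, 9.57 and 12.74 in BAT. MiR-3107 is no member by its number, and its differences were -2.49 for the 5p arm and -3.29 for the 3p arm in VAT/BAT.

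Since muscle contains miR-486, skeletal muscle miRNAs were read in the same libraries. MiR-133a-3p, a miRNA of striated muscle, was at 10.10, 17.20 and 18.67 in BAT 12, BAT 15 and BAT 20, at 9.85, 10.79 and 9.85 in SAT and at 9.85, 12.59 and 17.20 in VAT 14, VAT 17 and VAT 20. Of the 7 muscle miRNAs of the list, miR-208a-3p, miR-208b-3p and miR-499-5p were at the lowest value everywhere, while miR-1a-3p reached 7.38 in BAT 20 and miR-206-3p 8.17 and 8.23 in BAT 15 and BAT 20. In VAT 20, miR-1a-3p (3.83) and miR-206-3p (3.63) were near the lowest value, and miR-1a-3p was at it in BAT 15. The log2 of the summed list ranged from 10.18 to 18.68 in BAT, from 9.94 to 10.83 in SAT and from 9.94 to 17.21 in VAT. MiR-133a-3p was by far the largest part of that sum in every library. MiR-486-3p had the same order of libraries as miR-133a-3p within BAT and within VAT. Within SAT it did not, since SAT 19 was highest in miR-133a-3p (10.79) and lowest in miR-486-3p (6.01). MiR-486-5p held rank 2 in each BAT library, which fixes its value there, so that its BAT values cannot be read against miR-133a-3p. In VAT it was at 14.95, 15.78 and 14.81, with another order than miR-133a-3p. The part of muscle in the levels of miR-486 was not tested.

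Without BAT 15, BAT 20 and VAT 20, the libraries with miR-133a-3p above 17, a single BAT library was left. The remaining libraries of all depots were fitted together, and only the size of the differences from BAT is given. MiR-486-5p differed by -2.31 in VAT/BAT and by -2.59 in SAT/BAT. MiR-486-3p differed by -1.67 in VAT/BAT and by -2.03 in SAT/BAT. MiR-451a differed by 2.26 in VAT/BAT and miR-126-3p by 1.80, whereas miR-126-5p differed by 0.59 in VAT/BAT and by 0.37 in SAT/BAT. The VAT/SAT difference of miR-451a was 1.40 (adjusted p = 0.0781).

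**Figure D4:**
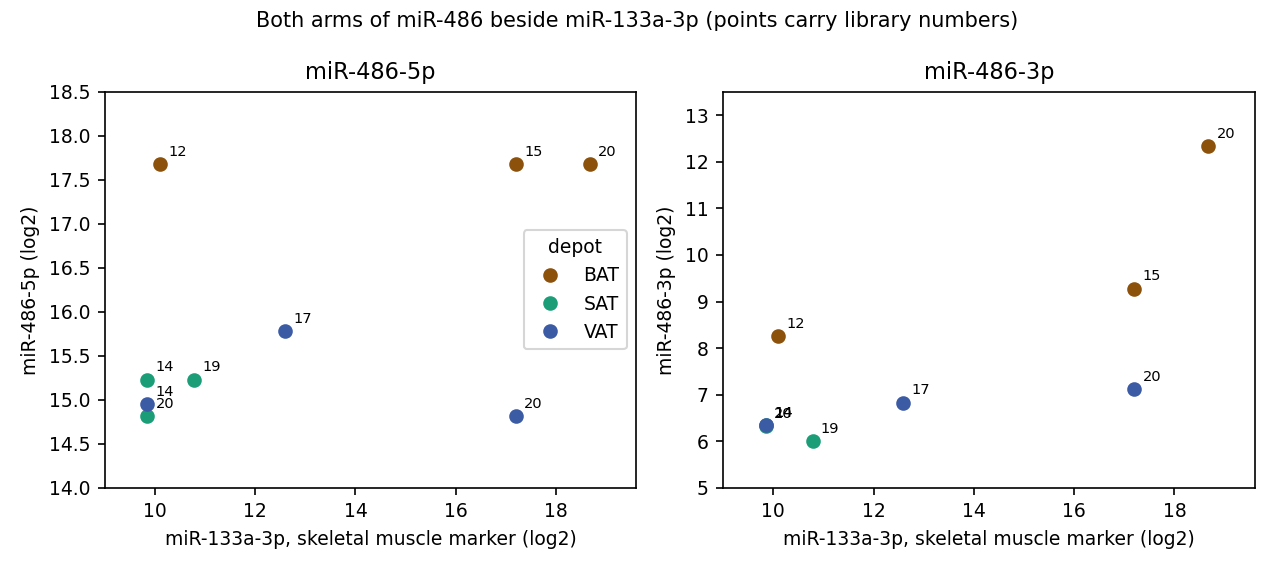
Log2 value of miR-486-5p (left) and miR-486-3p (right) against that of miR-133a-3p in the same library, with 1 point per library, coloured by depot and marked with the library number. MiR-486-3p goes from 8.25 to 12.34 over the BAT libraries at 10.10, 17.20 and 18.67 of miR-133a-3p, while the equal BAT values of miR-486-5p (17.68) are set by its rank of 2 in each. In the right panel SAT 14, SAT 20 and VAT 14 fall on almost the same point.

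Other miRNAs that red cells carry were counted from a list of 11, of which 8 were tested. In VAT/BAT, miR-16-5p (log2 difference 2.15, adjusted p = 0.00282) and miR-25-3p (0.96, adjusted p = 0.0386) were higher in VAT, and miR-92a-3p (-1.42, adjusted p = 0.003) and miR-484 (-0.87, adjusted p = 0.0178) were lower. These are 4 of 8, against 66.2% of all tested miRNAs, and the list's median log2 difference was -0.11, against 0.40. In SAT/BAT miR-25-3p was higher in SAT (1.29, adjusted p = 0.0222) and miR-484 lower (-0.77, adjusted p = 0.021), 2 of 8 against 40.5% of all tested miRNAs, with a median of -0.71 against 0.26. In VAT/SAT limma called 0 of the 8, against 16.0% of all tested miRNAs. Of the 8, 2 were at an unadjusted p under 0.05, and the test without moderation also called 0. The median there was 0.26 against 0.10. One of the 8, miR-183-5p, read 9.95 in SAT 14 but did not exceed 3.32 in SAT 19 or SAT 20. Over the 7 of the list measured in every library, the median was -0.44 in VAT/BAT, -0.65 in SAT/BAT and -0.094 in VAT/SAT. The sign of the VAT/SAT median thus turned without miR-183-5p. The miRNAs of the red-cell list occur in many other cell types as well.

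Of the 11 miRNAs listed for a role in vessel growth, 10 were above the lowest value in all 9 libraries, and miR-218-5p, at the lowest value in all BAT libraries, is not counted. MiR-92a-3p is also in the red-cell list. In VAT/BAT 5 of the 10 passed as higher and 1 as lower, where 69.0% of the miRNAs measured in every library passed. The lower one was miR-92a-3p (log2 difference -1.42, adjusted p = 0.003), and miR-132-3p, miR-210-3p, miR-23a-3p and miR-296-5p did not pass. The median log2 difference of the 10 was 1.11, against 0.40 over all tested miRNAs. In SAT/BAT 4 passed as higher and 0 as lower, where 47.3% passed, and the median was 1.14, against 0.26 over all tested miRNAs. Both counts lie near or below the background. MiR-130a-3p, which represses antiangiogenic homeobox genes in endothelium, differed by 2.80 in VAT/BAT (adjusted p = 0.000433) and by 2.62 in SAT/BAT (adjusted p = 0.00259), and miR-24-3p by 1.81 (adjusted p = 0.00209) and 1.43 (adjusted p = 0.00971). In VAT/SAT, 2 of the list were higher in VAT, miR-221-3p and miR-222-3p, and 2 lower, miR-210-3p and miR-296-5p, and the median was -0.029, against 0.10 over all tested miRNAs.

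Of the miRNAs of vascular smooth muscle, miR-143-3p, the main arm of miR-143, was higher in VAT (log2 difference 2.43, adjusted p = 0.000398) and in SAT (2.10, adjusted p = 0.00184) than in BAT, while miR-145a-5p, the main arm of miR-145a, differed by 0.03 in VAT/BAT (adjusted p = 0.935) and by 0.89 in SAT/BAT (adjusted p = 0.062). Limma called 0 of the 4 listed miRNAs in VAT/SAT, where 16.0% of all tested miRNAs passed. Of the 4, 3 were at an unadjusted p under 0.05, and the test without moderation called 0. MiR-143-5p and miR-145a-3p were at the lowest value in some BAT libraries. The summed leukocyte list had a log2 of 14.32 to 14.76 in BAT, 13.04 to 14.33 in VAT, and 13.70, 13.94 and 16.79 in SAT 14, SAT 19 and SAT 20, with miR-155-5p at the lowest value in all 9 libraries. MiR-150-5p was the largest part of this sum in every library, at 14.7, 14.5 and 14.3 in BAT 12, BAT 15 and BAT 20. Of the 3 miRNAs of the leukocyte list measured in every library, miR-142-5p (log2 difference 4.01) and miR-146a-5p (3.19) were higher in VAT than in BAT. MiR-150-5p was lower (-1.41), and miR-142-3p and miR-223-3p were at the lowest value in all BAT libraries. The part of these cells in the values of miR-126 and miR-451a was not tested.

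The miRNAs with the most similar profile were taken as those with the smallest root-mean-square difference over the 9 libraries, after the mean of each profile was subtracted. For miR-126-3p these were miR-322-5p (0.26 on the log2 scale), miR-26a-5p (0.27) and miR-103-3p (0.28), where the median of 337 miRNAs compared was 1.14. For miR-451a they were miR-99a-5p (0.31), miR-15a-5p (0.33) and miR-22-3p (0.35), with a median of 1.18. For miR-486-5p they were miR-3107-5p (0.00), miR-219-1-3p (0.33) and miR-378b (0.35), with a median of 1.54, and the last pair was above the lowest value in BAT libraries alone. The points of a profile share their libraries, and no test is given.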

How the data were processed

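The authors aligned the reads against miRBase hairpins, counted those within mature miRNAs, split reads with more than one match in proportion, scaled each library to its usable reads and raised every count by 40, as their methods state. The deposited log2 values do not show that offset as such, since their lowest is 3.32 (10 before log2), and libraries share values by rank, as quantile normalization leaves them, a step that the methods do not name. The submitters' processing notes name the build mm10. Mapper and miRBase release are not given in the sources used here.

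Groups came from the sample labels. The test covered the 343 of 1251 miRNAs that exceeded the lowest value in 3 or more of 9 libraries. Each pair of depots (6 libraries) was fitted with limma 3.58.1 (R 4.3.3, two-sided, no covariate, Benjamini-Hochberg adjustment over the 343), with calls at an adjusted p under 0.05, and this was tested on simulated data. The study names an unmoderated test, run as an alternative with other offsets, filters, scalings, blocks and libraries left out. Differences within a library were compared by exact permutation of libraries (scipy 1.17.1). Loci are from GENCODE M21. The members and lists, and the rule for named miRNAs (all members, the marker, red-cell and vessel lists, and the 3 most similar profiles of miR-126-3p, miR-451a and miR-486-5p), were chosen with earlier results of these data known. Nothing in the labels states that libraries with the same number come from the same mouse.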

Additional observations from a re-analysis of the deposited data

How the results depend on the processing

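The counts of called members among 5 moved as follows. In VAT/BAT the count of 5 fell to 2 without a filter on low values and was 4 or 5 in the other settings, with 4 to 5 when each library was left out. In SAT/BAT the count of 3 was 1 without the filter, 5 with all 9 libraries in one fit and 5 with the library number as a replicate block in that fit, and 1 to 4 when each library was left out. In VAT/SAT the count of 1, miR-451a, was 0 without the filter, relative to miR-191-5p, without moderation, with the library order as a replicate block, and without the 3 libraries with high miR-133a-3p, an alternative chosen after seeing the data, and 0 to 1 when each library was left out. In each of these settings with a count of 0, limma or the unmoderated test gave 1 member at an unadjusted p under 0.05. No filter brings in 839 miRNAs at the lowest value everywhere, and the cause of the other changes was not tested. Without the 3 libraries with high miR-133a-3p, a single BAT library was left. The VAT/BAT and SAT/BAT counts of that setting are thus no test.

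Libraries with the same number did not deviate together in every pair (r across 343 miRNAs -0.139, -0.0524, 0.107 and 0.270), and the labels give no pairing, so that the numbers were not taken to pair the libraries. With the number as a replicate block over the 6 libraries of VAT/SAT, 1 member was called, as without it (within-block correlation 0.0102).

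The VAT/SAT difference of miR-126-3p was -0.022 with a common median and -0.13 without SAT 20 (-0.13 to 0.094 when each library was left out), and that of miR-486-5p was -0.046 without SAT 20 and -0.21 without VAT 17 (-0.21 to 0.28). The arm difference of miR-486 was larger by 0.70 in VAT than in BAT and by 1.15 in SAT than in BAT. It changed sign without BAT 20 (-0.49 and -0.046) and without the 3 libraries with high miR-133a-3p (-0.64 and -0.56, values with no test since 1 BAT library was left). When each library was left out, it ranged from -0.49 to 1.55 in VAT minus BAT, from -0.046 to 2.0 in SAT minus BAT and from -0.72 to -0.085 in VAT minus SAT. The directions of the other differences within a library held in all settings. The depth of each library is unknown, so that a value at the lowest level does not show absence.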
